A study of Mus musculus with 8 samples.

Results

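A set of 8 homeodomain transcription factor genes of the developing nose (8 of 21789 array features that name exactly 1 gene) was followed in the olfactory mucosa of mouse pups, in which another homeodomain gene, Emx2, was deleted from mature olfactory sensory neurons (OSNs). They are the aristaless-like genes Alx1 and Alx4, the muscle segment homeobox genes Msx1 and Msx2, the distal-less genes Dlx3, Dlx5 and Dlx6, and the sine oculis gene Six4. They were chosen by name, with no threshold on their values, and each was represented by 1 transcript cluster, the unit in which this array merges the signals of all exons of a gene. The 4 knockouts were OmpCre:Emx2(fl/fl) pups. Both of their Emx2 copies carried loxP sites, and Cre recombinase was driven by the promoter of Omp, a gene of mature OSNs. Among the 4 littermate controls, the genotype of controls 1 to 3 was OmpCre:Emx2(fl/+), with 1 floxed copy, and that of control 4 was Emx2(fl/fl) with no Cre. All 8 mice were 1 day old, shared a mixed 129 x C57BL/6J background and carried at least 1 floxed Emx2 copy. Each array held total RNA of the whole dissected mucosa of 1 mouse, so that cells in which Cre was never active contributed to every value.

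Homeodomain proteins bind DNA through a helix-turn-helix fold that recognises short sites around the core TAAT. In the embryonic face the Alx genes mark neural crest mesenchyme between and above the nasal pits, the Msx genes respond to bone morphogenetic proteins (BMPs) at sites where epithelium and mesenchyme meet, and the Dlx and sine oculis genes act in the olfactory placode and in forming bone or muscle. In the mouse, loss of Dlx5 keeps OSN axons from reaching the olfactory bulb. The mucosa of a pup lies on cartilage and bone, so that a dissection can hold both neuronal and skeletal sources of these mRNAs.

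Of the members, 3 had a promoter among the RefSeq sequences used here (GRCm38.p6). The pair of Msx promoters is shown because the genes are paralogues that differ in the TAAT core. The 250 bases before each start site, on the minus strand, were chr5:37824586-37824835 for Msx1 and chr13:53472781-53473030 for Msx2. Capitals mark TAAT or its reverse complement ATTA.
Msx1: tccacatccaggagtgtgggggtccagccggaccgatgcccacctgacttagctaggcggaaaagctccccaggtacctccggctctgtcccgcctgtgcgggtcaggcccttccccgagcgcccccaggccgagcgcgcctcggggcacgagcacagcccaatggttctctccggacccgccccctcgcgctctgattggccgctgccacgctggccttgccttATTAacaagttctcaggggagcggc
Msx2: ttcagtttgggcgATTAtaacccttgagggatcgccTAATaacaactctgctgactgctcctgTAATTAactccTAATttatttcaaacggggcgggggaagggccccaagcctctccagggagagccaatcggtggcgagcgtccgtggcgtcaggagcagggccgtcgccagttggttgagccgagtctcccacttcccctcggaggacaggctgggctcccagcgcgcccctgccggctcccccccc
Counted on both strands, the core occurred 5 times in Msx2 and 1 time in Msx1. The longer palindrome TAATTA, which holds the core on each strand and gives 2 of those 5 counts, occurred 1 time in Msx2 and 0 times in Msx1. Over all 32841 promoters of this length, 54.9% held at least 1 core, 5.54% held 5 or more, and 4.84% held TAATTA. Of the 2 annotated starts of Six4 (chromosome 12), the upstream one had 0 cores in its window and the downstream one had 1. These matches describe letters only, and neither Msx gene differed between the groups beyond the spread between mice.

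Array medians ranged from 8.64 to 8.68 on the log2 scale and correlations between arrays from 0.985 to 0.994. Control 2 stood apart: the leading principal component, with 32.5% of the variance, placed it at 32.9 and all other mice from -11.8 to 6.11. Emx2 mRNA was 10.14 to 10.34 in the knockouts, below the 10.58 to 10.89 of the controls (log2 difference -0.55 ± 0.08, SE, n = 4 each, fold 0.684). The difference of Emx2 did not pass adjustment over all clusters (limma adjusted p = 0.201). Omp mRNA was 12.60 to 12.91 in the knockouts. It was 13.43 in control 1, whose label includes OmpCre, and 13.29 in the Cre-free control 4, against 12.56 and 12.72 in controls 3 and 2. By the paper, OmpCre mice carry Cre inserted at the Omp locus itself. Control 1 was nearest to the Cre-free control 4, and its Cre label could not be checked further. The mean of 18 other mature OSN markers was also highest in controls 1 and 4, at 11.77 and 11.71. It was 11.42 to 11.67 in the other mice. Whether the Omp values follow the Cre insertion was not tested. The mean of the Y-linked genes was 10.72 in knockout 3 and 7.05 to 7.51 in the other knockouts, against 10.53 to 10.63 in controls 2 to 4 and 8.09 in control 1, so that sex was unevenly spread over the groups. With this mean as a covariate, the differences were 0.10 for Alx1, 0.05 for Alx4, 0.06 for Msx1, -0.10 for Msx2, 0.04 for Dlx3, 0.06 for Dlx5, 0.14 for Dlx6 and 0.07 for Six4, and 0 members passed.

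In limma's test, none of the 8 genes differed between knockouts and controls beyond the spread between mice. Means were higher in the knockouts for Alx1, Alx4, Dlx3, Dlx5, Dlx6 and Six4 and lower for Msx1 and Msx2, with differences from -0.02 (Msx2) to 0.19 (Alx1) and a median of 0.05, against a median of 0.0024 over all 21789 clusters. By limma, 0 of 8 members passed at an adjusted p of 0.05 (0% of all clusters passed), and 0 were at an unadjusted p under 0.05, where 5.17% of all clusters were (2.62% higher and 2.55% lower in the knockouts). The mean was higher in the knockouts for 51.4% of all clusters. The methods' t-test also placed 0 members under 0.05 before or after adjustment. The groups overlapped for all 8 members, and did not overlap in 3.1% of all clusters (1.62% higher and 1.48% lower in the knockouts). Without control 2, 4 members were higher and 4 lower, and their median was 0.02. In whole mucosa, fewer cells of a type and less RNA per cell cannot be told apart.

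**Figure D1:**
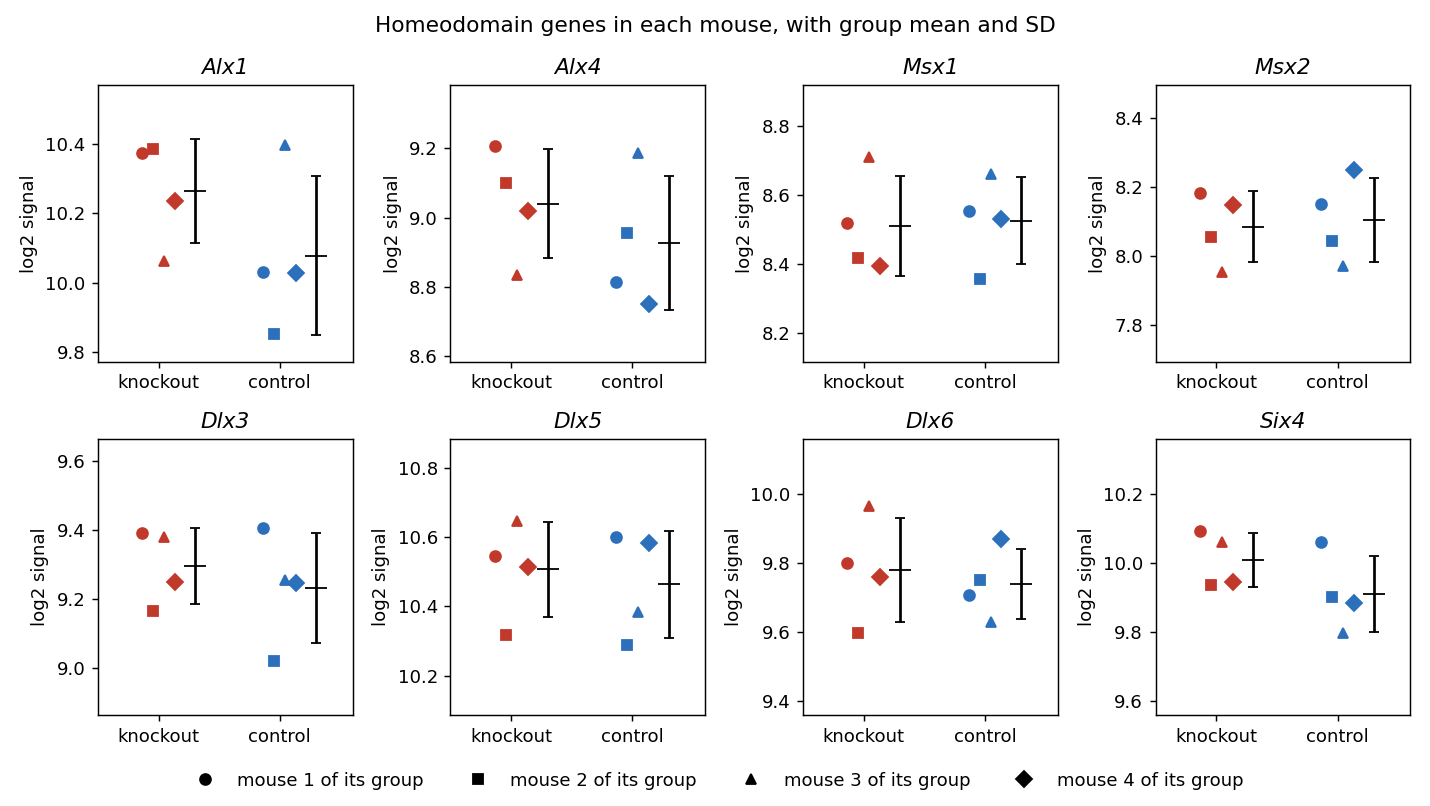
Log2 signal of the 8 homeodomain genes in each mouse (points, with the same marker shape for the mouse of that number in its group), with the group mean and SD at the right of each group; all vertical axes span 0.8 log2 units. Knockout and control points overlap in every panel, and control 3 is the highest control for Alx1, Alx4 and Msx1.

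Alx1, which in the mouse is needed by the mesenchyme that forms the skull vault, had the largest difference of the 8 genes. Its log2 signal was 10.37, 10.39, 10.06 and 10.24 in knockouts 1 to 4, against 10.03, 9.85, 10.40 and 10.03 in controls 1 to 4. All 4 knockouts were above every control but control 3, which was the highest of all 8 mice. The difference was 0.19 ± 0.12 (fold 1.14, 95% interval 0.943 to 1.38, limma adjusted p = 0.910). It was 0.11 without control 2, 0.29 without control 3 and 0.17 without control 1. In size it lay at the percentile 91.8 of all clusters.

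Alx4, whose loss in the mouse gives extra digits and skull defects, had log2 signals of 9.21, 9.10, 8.83 and 9.02 in the knockouts, against 8.81, 8.96, 9.19 and 8.75 in the controls. As for Alx1, knockout 3 was the lowest knockout and control 3 the highest control. The difference was 0.11 ± 0.11 (fold 1.08, 95% interval 0.910 to 1.29, limma adjusted p = 0.918). It was 0.08 without control 1 and 0.12 without control 2, and ran from 0.05 without control 4 to 0.20 without control 3. Per mouse, the log2 ratio of Alx1 to Alx4 differed by 0.07 between the groups (1.22 ± 0.05 in knockouts and 1.15 ± 0.17 in controls, SD, n = 4, exact permutation p = 0.543, two-sided, 0.971 adjusted over 3 such ratios), and by -0.01 without control 2, so that unequal change of the pair was not detected.

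The Msx genes, targets of BMP signalling in teeth, palate and skull, had the smallest differences. Msx1 was 8.52, 8.42, 8.71 and 8.39 in the knockouts, against 8.55, 8.36, 8.66 and 8.53 in the controls. Knockout 3 was the highest mouse and control 2 the lowest. The difference of Msx1 was -0.02 ± 0.09 (fold 0.989, 95% interval 0.863 to 1.13, limma adjusted p = 0.990). It was -0.07 without control 2 and -0.0060 without control 1.

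Msx2 was 8.18, 8.06, 7.95 and 8.15 in the knockouts, against 8.15, 8.04, 7.97 and 8.25 in the controls, with knockout 3 the lowest and control 4 the highest mouse. Its difference was -0.02 ± 0.07 (fold 0.987, 95% interval 0.877 to 1.11, limma adjusted p = 0.982), and was -0.04 without control 2 and -0.0040 without control 1. The ratio of Msx1 to Msx2 differed by 0.0037 between the groups (exact permutation p = 0.971, two-sided, n = 4 each, 0.971 adjusted over 3). Knockout 3 and control 3 had both the highest Msx1 and the lowest Msx2 signals of their groups. For neither Msx gene was the sign of the difference stable: it turned for Msx1 without knockout 2, knockout 4 or control 3, and for Msx2 without knockout 3 or control 4.

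Dlx3, a factor of skin appendages, teeth and bone, was 9.39, 9.16, 9.38 and 9.25 in the knockouts, against 9.41, 9.02, 9.26 and 9.25 in the controls. Control 2 was the lowest mouse and control 1 the highest. The difference was 0.06 ± 0.09 (fold 1.05, 95% interval 0.911 to 1.20, limma adjusted p = 0.938), and -0.0067 without control 2, or 0.12 without control 1.

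Dlx5, made in the olfactory epithelium and in bone-forming cells, was 10.55, 10.32, 10.65 and 10.51 in the knockouts, against 10.60, 10.29, 10.38 and 10.58 in the controls. The difference was 0.04 ± 0.09 (fold 1.03, 95% interval 0.890 to 1.19, limma adjusted p = 0.961). It was -0.02 without control 2, 0.09 without control 1 and -0.0041 without knockout 3.

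Dlx6, which lies beside Dlx5 on chromosome 6 with a long noncoding RNA gene, Dlx6os2, annotated between them, was 9.80, 9.60, 9.96 and 9.76 in the knockouts, against 9.71, 9.75, 9.63 and 9.87 in the controls. Its difference was 0.04 ± 0.08 (fold 1.03, 95% interval 0.903 to 1.17, limma adjusted p = 0.958). It was 0.03 without control 1, 0.0450 without control 2 and -0.02 without knockout 3, the highest mouse for both genes. The ratio of Dlx5 to Dlx6 was 0.73 ± 0.03 in knockouts and 0.72 ± 0.15 in controls (log2, SD, n = 4 each, exact permutation p = 0.943, two-sided, 0.971 adjusted over 3). Without control 2, in which Dlx5 was the lowest of all mice and Dlx6 was not, the SD in the controls was 0.09 and the group difference -0.06.

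Six4, a transcription factor gene of the olfactory placode, had the narrowest interval. It was 10.09, 9.94, 10.06 and 9.95 in the knockouts, against 10.06, 9.90, 9.80 and 9.88 in the controls. All 4 knockouts were above 3 of the 4 controls, and control 1 was the exception. The difference was 0.10 ± 0.07 (fold 1.07, 95% interval 0.965 to 1.19, limma adjusted p = 0.910). Without control 1 the groups did not overlap and the difference was 0.15, which did not pass after adjustment (0.625), and without control 3 it was 0.06. The share of all clusters without overlap was not counted with control 1 left out. Without control 2 it was 0.10.

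**Figure D2:**
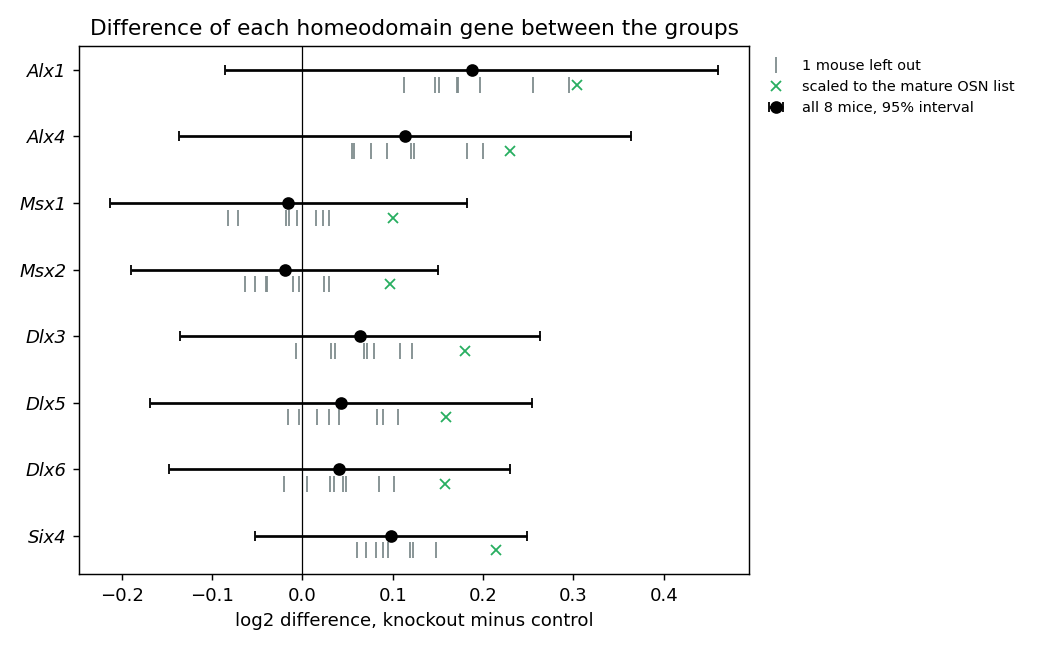
Log2 difference of knockouts minus controls for each gene (points) with its 95% interval from limma (n = 4 mice per group), the values with 1 mouse left out (grey ticks) and those after scaling to mature OSN markers (green crosses). Every interval spans 0, and scaling moves all 8 genes to the right by the same amount, the median of all clusters included (0.12).

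The study corrected its comparisons by 1 factor, the average difference of a large set of mature OSN mRNAs. The scaling shown in that plot is not that correction: the mean of 18 mature OSN markers was subtracted from each array, which alters the spread between mice as well as the difference. The shift was the mean difference of those 18 markers (-0.12), whose median was -0.04. The paper reports that conditional Emx2 deletion left the numbers of mature and immature OSNs unaffected. After the scaling all 8 members had higher means in the knockouts (median 0.17, against 0.12 over all clusters). Six4 then differed by 0.21 with groups that did not overlap (limma adjusted p = 0.599). The share of all clusters without overlap was not counted after the scaling. The step subtracts the same amount from every gene of an array, so that the order of the 8 differences was not altered.

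Of 8 other members of these families that were analysed, 3 were higher and 5 lower in the knockouts, with 0 past adjustment and a median difference of -0.02. All 8 were lower without control 1 or without knockout 1, and 4 were lower without control 2. Dlx1 and Dlx2, which specify inhibitory neurons of the forebrain and olfactory bulb, varied far more between mice than any of the 8 genes. Dlx1 was 9.99, 8.50, 7.99 and 8.08 in the knockouts, against 7.74, 9.70, 8.03 and 8.86 in the controls (difference 0.06 ± 0.54, and 0.43 without control 2 or -0.39 without knockout 1). Knockout 1 and control 2 were the high mice, and the mean of the bulb and brain neuron markers was also highest in these, at 8.93 in knockout 1 and 8.77 in control 2, and 8.26 to 8.58 in the other mice. The part of such tissue in these values was not tested. The difference of Dlx2 was -0.04 ± 0.32, that of Dlx4, the neighbour of Dlx3, -0.03 ± 0.05, and that of Msx3 0.02 ± 0.07. Among the sine oculis genes, Six2 differed by 0.01 ± 0.05, Six3 by -0.06 ± 0.05, Six5 by -0.0076 ± 0.05 and Six6 by -0.05 ± 0.10. Of the Eya and Dach genes, which encode cofactors of sine oculis proteins, 5 of 6 were higher and 0 passed, with Dach1 at 0.21 ± 0.10 (limma adjusted p = 0.910).

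BMP signalling lies upstream of the Msx and Dlx genes. Of its 5 ligands 4 were higher and 1 lower in the knockouts, with 0 past adjustment. Bmp6 was the ligand with the smallest p: it was 10.67, 10.40, 10.59 and 10.52 in the knockouts, against 10.74, 10.86, 10.72 and 10.81 in the controls, with no overlap (difference -0.24 ± 0.06, limma adjusted p = 0.739). Bmp4 differed by 0.27 ± 0.12. Receptors and Smads were 4 higher and 3 lower (median 0.0072, Bmpr1b at 0.16 ± 0.10 and Smad5 at 0.07 ± 0.04), antagonists 6 higher and 1 lower (Fst, which encodes follistatin, at 0.26 ± 0.14), and the Id genes, direct targets, 2 higher and 2 lower. Id4 had a difference of -0.21 ± 0.08 (limma adjusted p = 0.910), and 0 of these genes passed.

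Transcription factors of the skeleton were 5 higher and 2 lower of 7, with Sp7, which osteoblasts need, at 0.25 ± 0.18 and Sox6, a cartilage factor, at 0.17 ± 0.09. Those of nasal mesenchyme were 11 higher and 3 lower of 14 (median 0.09), with Prrx1 at 0.19 ± 0.11 and Meox2 at 0.13 ± 0.07. Factors of the olfactory placode were 3 higher and 4 lower (Sox3 at -0.14 ± 0.06). None of these genes passed after adjustment.

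Markers of the tissues that could hold the 8 mRNAs are given here as values, and none passed limma's test after adjustment. All 9 cartilage markers were higher in the knockouts (median 0.19), of which Hapln1, a matrix link protein, differed by 0.57 ± 0.28 and Col11a1 by 0.27 ± 0.11, and 0 passed. Their mean was 9.87, 9.88, 9.41 and 9.46 in the knockouts, against 9.18, 9.16, 9.80 and 9.47 in the controls. All 6 measured bone markers were higher (median 0.23), with Phex at 0.44 ± 0.31 and Ibsp at 0.35 ± 0.19. Their mean was 10.32, 9.98, 10.35 and 9.96 in the knockouts, against 10.27, 9.61, 10.10 and 9.67 in the controls. Without control 2 the median was 0.14, with Phex at 0.25 and Ibsp at 0.22. For both lists the groups overlapped. All 12 measured markers of OSN progenitors and dividing cells were higher (median 0.19, Mki67 at 0.31 ± 0.17, Kit at 0.17 ± 0.07), and control 2 was lowest in their mean, at 10.77 against 11.15 to 11.40 in the other mice. Without it 10 of the 12 were higher, with a median of 0.09 and Mki67 at 0.13. Of 18 mature OSN markers 14 were lower (median -0.04, S100a5 at -0.58 ± 0.12, limma adjusted p = 0.459). The count was 10 without control 1 (median -0.01), 17 without control 3 (median -0.11) and 15 without knockout 3 (median -0.11). Of 12 immature OSN markers 8 were lower (Trib3 at -0.20 ± 0.07).

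The signals of several members moved with these markers from mouse to mouse, and the part of the markers' tissues in the members' values was not tested. Alx1 rose with the cartilage markers (Pearson r = 0.93 over 8 mice, exact permutation p = 0.00203, two-sided, 0.0317 adjusted over the 40 relations of 8 members with 5 lists; Spearman rho = 0.79, exact permutation p = 0.0279, 0.160 adjusted). Without controls 2 and 3, the mice farthest from the median of Alx1, r was 0.90, and it was 0.91 among deviations from the group means. Alx4 fell as mature OSN markers rose (r = -0.96, exact permutation p = 0.000471, 0.0188 adjusted over the 40, and rho = -0.98, exact permutation p = 0.000397, 0.0159 adjusted). This r was -0.94 without control 4 and knockout 1, and -0.98 within the knockouts and -0.95 within the controls. The relation of Alx1 to the mature OSN markers (r = -0.79, rho = -0.76) did not pass after adjustment (0.142), nor did that of Alx4 to the cartilage markers (r = 0.77, adjusted 0.151, exact permutation).

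Dlx3 rose with the bone markers (r = 0.86, exact permutation p = 0.00384, 0.0384 adjusted over the 40; rho = 0.83, exact permutation p = 0.0154, 0.160 adjusted), and r was 0.74 without controls 2 and 1. Dlx5 rose with the progenitor and division markers (r = 0.76, exact permutation p = 0.00238, 0.0317 adjusted; rho = 0.81, exact permutation p = 0.0218, 0.160 adjusted), with an r of 0.85 without control 2 and knockout 2. Dlx5 was lower where myeloid markers were higher (r = -0.69, exact permutation p = 0.00556, 0.0444 adjusted; rho = -0.79, exact permutation p = 0.0279, 0.160 adjusted), and this r was -0.68 without control 2 and knockout 2. Control 2 was 10.10 in the mean of the myeloid markers, against 8.98 to 9.20 in the other mice, and r without it was -0.67. After scaling to the mature OSN markers, which subtracts the same amount from Dlx5 and from the list mean of an array, this r was -0.38. The other 35 relations did not pass, and those of Msx1, Msx2, Dlx6 and Six4 were among them.

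**Figure D3:**
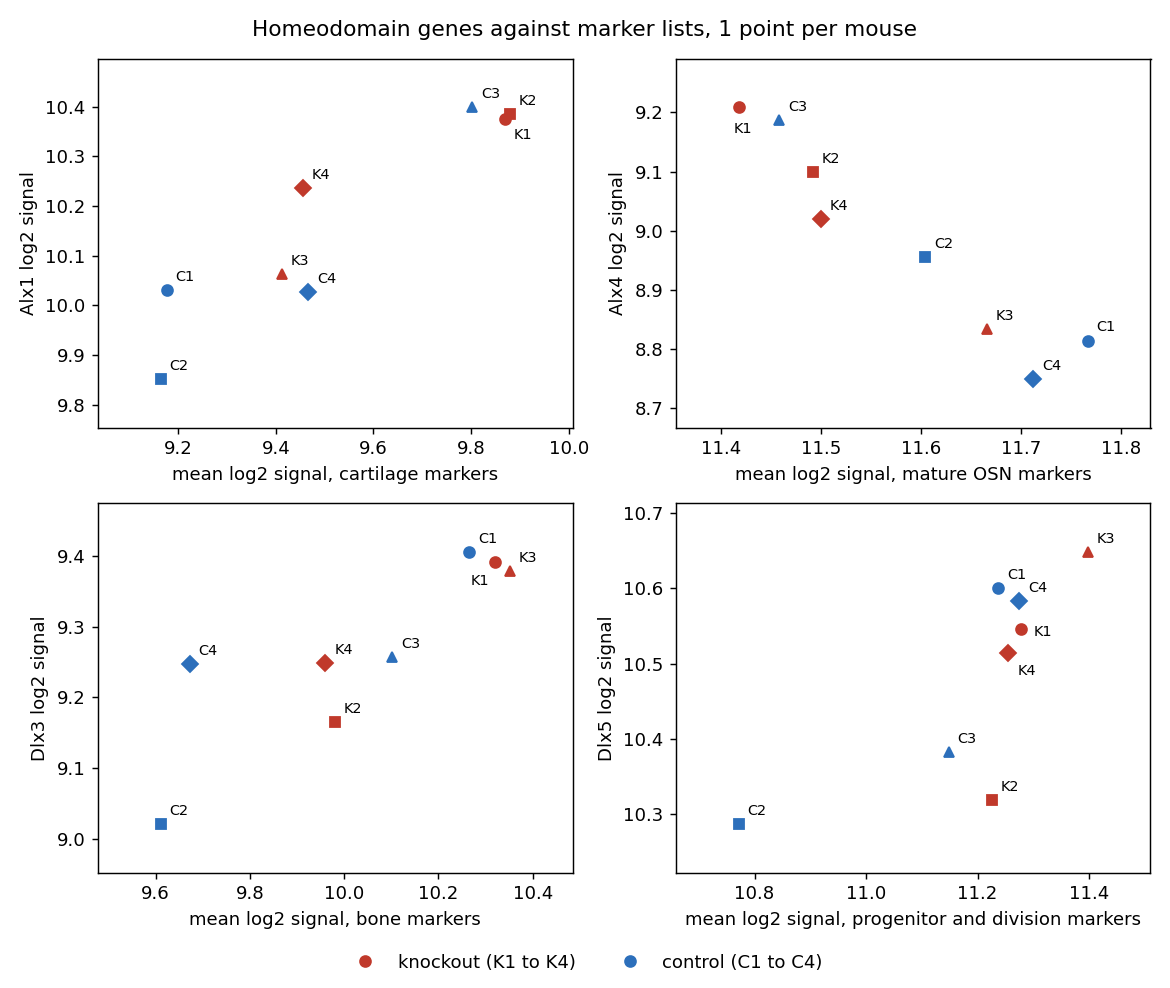
Log2 signal of Alx1, Alx4, Dlx3 and Dlx5 against the mean log2 signal of a marker list, with 1 point per mouse (red knockouts, blue controls, labelled by group letter and number). Over all mice r is 0.93, -0.96, 0.86 and 0.76 for the panels of Alx1, Alx4, Dlx3 and Dlx5. Within the knockouts and within the controls r has the same sign in each panel. In the panel of Dlx5, knockout 2 and control 1 have near list means (11.23 and 11.24) and Dlx5 at 10.32 and 10.60. Knockout 1 and control 4 also have near list means (11.28 and 11.27), and their Dlx5 is at 10.55 and 10.58. Whether the groups share 1 line was not tested. Control 2 is at the low end for Alx1, Dlx3 and Dlx5.

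Between members, 28 pairs were compared and 17 had a positive r (median 0.16, from -0.57 for Alx4 with Dlx6 to 0.85 for Dlx3 with Dlx5). Dlx3 with Dlx5 (rho = 0.74, exact permutation p for r = 0.00717 and for rho = 0.0458), Alx1 with Alx4 (r = 0.80, rho = 0.79, exact permutation p for r = 0.0261) and Dlx5 with Dlx6 (r = 0.71, rho = 0.64, exact permutation p for r = 0.0495) were the 3 pairs under 0.05. None passed when adjusted over the 28 pairs (adjusted p = 0.201, 0.365 and 0.443). Without its 2 farthest mice, r was 0.74 for Dlx3 with Dlx5, 0.97 for Alx1 with Alx4 and 0.79 for Dlx5 with Dlx6. The r of Msx1 with Msx2 was below 0 (r = -0.38, rho = -0.26, exact permutation p = 0.341 and 0.536).

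**Figure D4:**
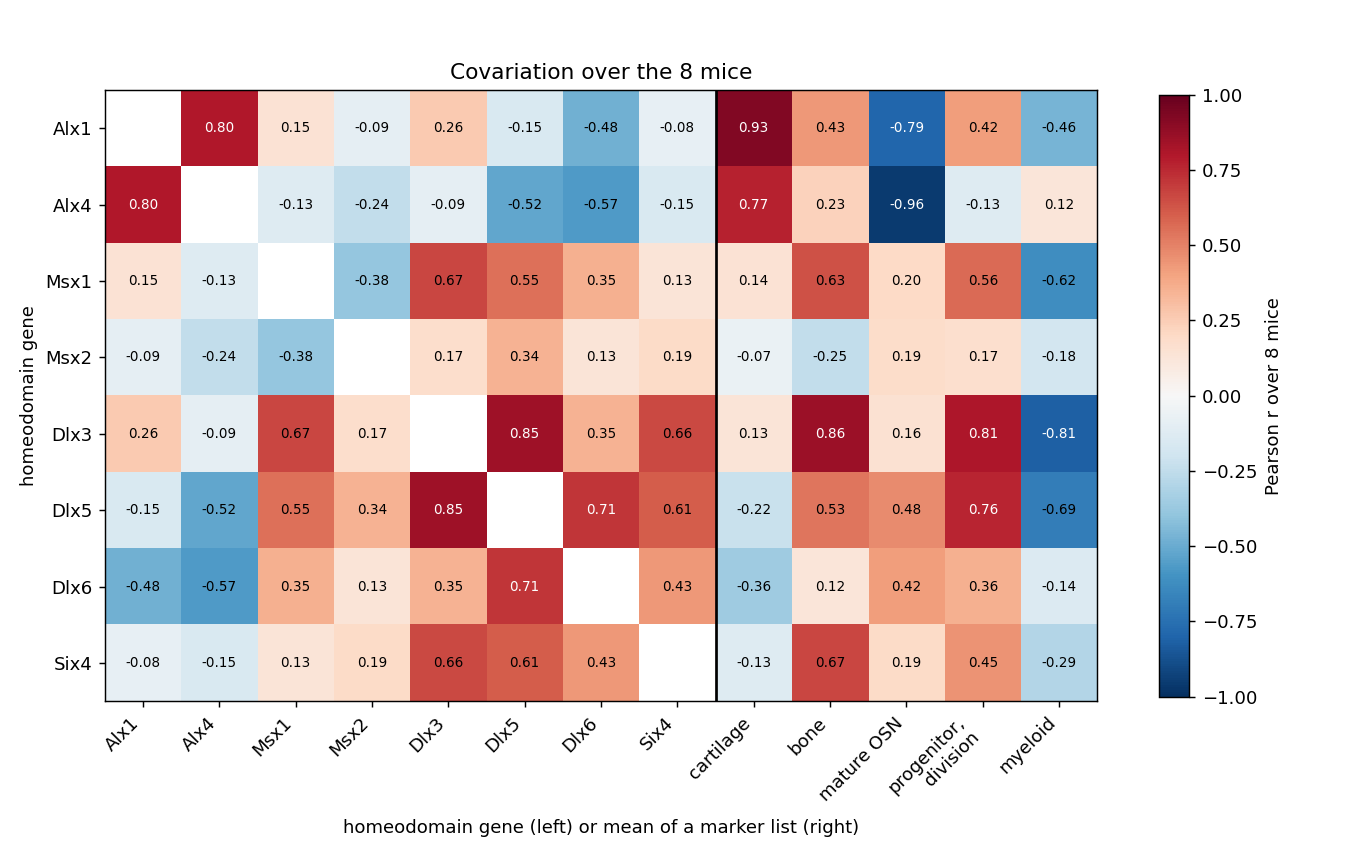
Pearson r over the 8 mice between the 8 homeodomain genes (left block) and between each gene and the mean of 5 marker lists (right block), with red positive and blue negative. The strongest positive cells are Alx1 with cartilage (0.93), Dlx3 with bone (0.86) and Dlx3 with Dlx5 (0.85), and the strongest negative one is Alx4 with mature OSN markers (-0.96).

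Among all tested clusters, those most like each gene over the 8 mice were, by Pearson r as a description, Cntnap5c (0.98) and Dlc1 (0.98) for Alx1, Syt10 (0.97) and Adamts3 (0.97) for Alx4, and Ube2e1 (0.98) and Macrod2 (0.96) for Dlx3. For Dlx5 they were Hdgf (0.99) and Rfwd3 (0.98), for Dlx6 Jpt1 (0.98) and Spast (0.96), and for Six4 Lrch2 (0.97) and Rbm7 (0.97). The odorant receptor gene Olfr1205 (0.99) and Tyr (0.95) were most like Msx1, and Hacd3 (0.91) and Zfp640 (0.89) most like Msx2. An r above 0.9 was reached with 58 to 77 clusters by Alx1, Alx4, Dlx3, Dlx5, Dlx6 and Six4, with 30 by Msx1 and with 1 by Msx2. Such values are the top of a search of 21789 clusters over 8 mice. How many clusters an unrelated gene would reach was not counted, and no partner was tested.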

How the data were processed

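RNA from the whole olfactory mucosa of a single pup was hybridised to each array (Affymetrix Mouse Gene 1.0 ST). The authors deposited log2 signals per transcript cluster. Affymetrix Expression Console is the tool that the submitters' processing notes list. How it summarised and normalized probes was not given. Values (2.65 to 14.9) were used as deposited. Symbols came from the platform annotation: of 35557 clusters 21789 named 1 gene, 1621 several and 12147 none. Each member had 1 cluster. Where a list gene had several, the one with the highest mean signal was taken. List genes without a cluster under their symbol were not analysed here, nor were antisense RNAs of Dlx6. Whether probes can read the opposite strand is not stated in the sources used here.

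Knockouts were compared with controls by limma 3.58.1 (R 4.3.3, lmFit and eBayes, two-sided) with Benjamini-Hochberg adjustment over 21789 clusters. Ratios of paralogues and correlations over mice were tested by exact permutation (70 assignments for ratios, and 40320 pairings for correlations with a smallest possible p of 2.5e-05). The data simulated as a check had independent normal noise and 200 changed clusters per run. In them limma recovered 73.4% of 0.5 log2 changes and 94.2% of 1 log2 changes. In the real arrays 0 clusters passed, and Emx2, at -0.55, had a limma adjusted p of 0.201. The shares recovered are therefore no measure of power for the members. The alternatives were scaling, quantile normalization, filters, the methods' t-test, array weights, a Y-linked covariate and leaving out each array. Genes named are the members, Emx2, Omp, their paralogues, in each list the gene of smallest p or largest difference, and the 2 clusters most like each member. Members and lists were chosen with earlier results of these data known. The number of arrays limits the precision. Replicates are separate mice numbered in accession order, and litters were not labelled.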

Additional observations from a re-analysis of the deposited data

Results flagged for a closer look

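None of the 16 groups of values of the 8 genes held a mouse far from the other 3 of its group. Of all 48 groups of 4 values examined, 6 held such a mouse. Chance gives about 1 in 20 for independent, normally spread groups. These groups share mice, and the Y-linked means split by sex, so no excess over chance can be read from the count. In knockout 3 the mean of the BMP ligands was 9.95, against 10.13 to 10.17 in the other knockouts, and that of the nasal mesenchyme factors was 8.92, against 9.14 to 9.18. In knockout 1 the mean of the bulb and brain neuron markers was 8.93, against 8.44 to 8.49 in the other knockouts. In control 2 the mean of the myeloid markers was 10.1, against 8.98 to 9.14 in the other controls. The mean of the Y-linked genes was 10.7 in knockout 3, against 7.05 to 7.51 in the other knockouts, and 8.09 in control 1, against 10.53 to 10.63 in the other controls.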

How the results depend on the processing

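No member passed adjustment in any of the settings run, with adjusted p from 0.599 to 1.00, and Alx1, Alx4 and Six4 kept a positive difference in each setting that tested them (Alx4 was below the median signal and not tested there). Scaling to the mature OSN list, which moved the median of all clusters to 0.12, turned Msx1 (0.101) and Msx2 (0.0971), moved the median over the members to 0.17, gave 1 member with groups that did not overlap and 5 clusters past adjustment in all. The count of clusters past adjustment was 2 among clusters above the median signal (5 members tested), 4 among those above the posterior Hox genes (8 members tested) and 5 with array weights. With the Y-linked covariate Msx1 was 0.0607 (7 members higher and 1 lower). Leaving out 1 mouse at a time gave -0.0820 to 0.0297 for Msx1, -0.0631 to 0.0294 for Msx2, -0.0067 to 0.121 for Dlx3, -0.0158 to 0.106 for Dlx5, -0.0200 to 0.102 for Dlx6 and 0.0191 to 0.104 for the median over the members. It gave 0 to 1 members without overlap (Six4 without control 1 and Alx1 without control 3) and 0 to 1 clusters past adjustment. The share of all clusters without overlap was counted only for the main comparison of all 8 mice, not after scaling or leaving out a mouse. By limma, 1736 of 21789 clusters were at an unadjusted p under 0.05 without control 1. There were 1360 without control 3, against 1126 with all mice. The group difference of the paralogue ratios ran from -0.0105 to 0.117 for Alx1 to Alx4, -0.106 to 0.0928 for Msx1 to Msx2, which was -0.0015 with quantile normalization, and -0.0608 to 0.0585 for Dlx5 to Dlx6. Scaling turned r of Alx4 with Dlx6 to 0.487, and made all 28 pairs of members positive, since it subtracts 1 amount per array from both genes. Among the relations to marker lists that passed, it moved r of Dlx5 with the myeloid markers to -0.38, and r of Alx1 with cartilage, Dlx3 with bone and Dlx5 with progenitor markers to 0.96, 0.92 and 0.87. Here too 1 amount per array was subtracted from both the gene and the list mean, and 29 of 32 such r were positive. These changes of r are therefore no test of the relations. The ratio, correlation and marker list alternatives were chosen after seeing the data. Averaging several clusters of a member was not run, because each member had 1. No paired analysis was possible because replicate numbers were given in accession order and the columns carry none. Intervals of the 8 differences are as wide as 0.943 to 1.38 in fold (Alx1), so smaller changes could not be detected.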

Other observations

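Markers of the remaining cell types of the mucosa are given as values, and 0 of them passed limma's test after adjustment. All 6 endothelial markers were higher in the knockouts (median log2 difference 0.12, Kdr, a receptor of vascular endothelial growth factor, at 0.15 ± 0.13 and Tie1 at 0.12 ± 0.07, SE, n = 4 each). Their mean ran from 9.12 (knockout 3) to 9.75 in the knockouts and from 9.36 to 9.45 in the controls. Without knockout 4, 5 were higher and 1 lower with a median of 0.02, and without knockout 3 the median was 0.24. All 7 markers of Bowman glands were lower (median -0.13, Aqp3, a water channel, at -0.13 ± 0.07 and Dmbt1 at -0.57 ± 0.81), while their mean ran from 11.18 to 11.81 in the knockouts and from 11.16 to 12.48 in the controls. Control 1 was the highest mouse, and without it 5 were lower and 2 higher, Dmbt1 was at 0.28 and the list means differed by 0.01. Of 6 markers of horizontal basal cells, the reserve stem cells of the epithelium, 2 were higher and 4 lower (Krt17 at -0.23 ± 0.13, Icam1 at -0.25 ± 0.23). Without control 2 their median was -0.07, against -0.18 with it.

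Of 7 sustentacular cell markers 2 were higher and 5 lower (Cbr2 at -0.08 ± 0.05, Lypd2 at -0.16 ± 0.22), and of 7 ciliated cell markers 5 were higher and 2 lower (Foxj1 at -0.12 ± 0.08, Dnaic1 at 0.23 ± 0.24), or 1 higher and 6 lower without control 4. Ensheathing glia markers were 4 higher and 3 lower (Frzb at 0.20 ± 0.12). Myeloid markers were 3 higher and 7 lower (Tyrobp at -0.35 ± 0.23, Cd14 at -0.63 ± 0.50), with control 2 the highest mouse. Without control 2 they were 7 higher and 3 lower, with Cd14 at -0.04 and Tyrobp at -0.08. Erythroid markers were 3 higher and 1 lower (Alas2 at 0.26 ± 0.42), or 0 higher and 4 lower without control 2 (Alas2 at -0.11), and muscle markers 1 higher and 7 lower (Myog at -0.11 ± 0.10). Bulb and brain neuron markers were 6 higher and 3 lower (Gad2 at 0.32 ± 0.11, adjusted p = 0.876 by limma). Without knockout 1 they were 3 higher and 6 lower, with a median of -0.09. Posterior Hox genes, taken as genes not used in the head, were 5 higher and 11 lower (Hoxa10 at -0.21 ± 0.06, Hoxa11 at -0.24 ± 0.08).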
